A study of Mus musculus with 12 samples.

Results

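The keratins of the inner root sheath are the 8 genes Krt25, Krt26, Krt27 and Krt28 (type I) and Krt71, Krt72, Krt73 and Krt74 (type II). They were taken by name from the 37008 gene names on the array and read on all 10 of their probes in whole ear skin of 5 mouse genotypes. Keratin filaments assemble from pairs of a type I and a type II chain, so each sheath filament needs a partner from each family. The inner root sheath is the sleeve that surrounds and moulds the growing hair shaft, made of the Henle layer, the Huxley layer and a cuticle, and it is built while a follicle is in its growth phase (anagen). Mutations of mouse Krt25, Krt27 and Krt71 are known for wavy or curly coats.

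Each array carried labelled RNA pooled from 6 to 8 C57BL/6J mice of one genotype. The treated groups were Tlr7-/-, Tlr9-/-, Tlr7-/-Tlr9-/-, Card14-/- and wild-type (WT) mice given 62.5 mg of cream holding 5% imiquimod (IMQ) and sampled 4 h later, and each was set against untreated mice of the same genotype. IMQ is an agonist of the RNA sensor TLR7, TLR9 senses DNA, and CARD14 is an adaptor that activates NF-kB in keratinocytes. There were 7 IMQ arrays, with repeat arrays for Tlr7-/-Tlr9-/- and Card14-/- only, and 5 untreated arrays. No group with the cream base alone was analysed here, and hair cycle stage, age and sex are not given in the sources used here.

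Values are log2 signals of a probe after quantile normalization, in which every array is given the same distribution. Between 60.1% and 65.7% of spots on an array were well above background, the scanner software's mark for a detected spot, and the lowest such signals lay between 3.63 and 4.38 on the log2 scale. The 75th percentile of unscaled signal was 527.4 to 778.9 on IMQ arrays and 1069.6 to 1236.4 on untreated arrays, so overall brightness goes with treatment. The untreated arrays and the WT, Tlr7-/- and Tlr9-/- IMQ arrays shared slide 1, and the 4 Tlr7-/-Tlr9-/- and Card14-/- IMQ arrays were on slide 2. A keratin is called changed at an adjusted p under 0.05 (limma, Benjamini-Hochberg over 24078 genes) together with a log2 difference of 1 or more in comparisons between groups, and at the adjusted p alone in the average over genotypes and in the comparison of Tlr7-deficient with other genotypes. The spread behind the comparisons between groups comes from the repeat arrays of 2 groups with 2 residual degrees of freedom. Groups with 1 array are assumed to vary like them. Since repeat arrays may share a pool, these p-values may measure array error rather than the spread between mice. Groups with 1 array hold 1 pool, so pool cannot be told apart from genotype or treatment. In the average and the Tlr7 comparison the spread is that between genotypes. The targeted genes were read as a check of the labels. Tlr7 has 3 probes, of which 1 was read. It gave 4.03 to 5.85 on the 5 arrays labelled Tlr7-deficient and 7.36 to 8.12 on the other 7. It was still well above background on 4 of those 5 arrays. Card14 read 9.62 to 9.89 on the 3 arrays labelled Card14-/- and 10.82 to 11.65 on the other 9. The Tlr9 probe read 10.95 to 11.33 on the 5 arrays labelled Tlr9-deficient and 11.05 to 11.39 on the other 7, and since the sources used here do not say whether it lies in the deleted part, it does not check that label.

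The genes lie in 2 clusters, and the promoter sequences of 4 members are shown because these genes span the patterns described below. The sequences are the 250 bases before the annotated start in RefSeq, build GRCm38.p6, read 5' to 3' on the minus strand, at chr15:101743098-101743347 (Krt71), chr11:99322952-99323201 (Krt25), chr15:101802361-101802610 (Krt73) and chr15:101786521-101786770 (Krt72). Capitals mark TATAAA and TAATTA.
Krt71: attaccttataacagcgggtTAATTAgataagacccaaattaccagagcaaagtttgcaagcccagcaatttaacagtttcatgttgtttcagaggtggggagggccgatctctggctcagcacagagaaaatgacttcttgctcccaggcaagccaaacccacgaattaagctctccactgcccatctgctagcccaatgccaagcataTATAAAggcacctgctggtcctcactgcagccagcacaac
Krt25: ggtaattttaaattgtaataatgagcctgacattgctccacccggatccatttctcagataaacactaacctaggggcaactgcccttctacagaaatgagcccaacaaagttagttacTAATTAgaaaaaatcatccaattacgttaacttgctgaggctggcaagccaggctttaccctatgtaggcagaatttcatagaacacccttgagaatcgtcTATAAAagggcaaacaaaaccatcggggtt
Krt73: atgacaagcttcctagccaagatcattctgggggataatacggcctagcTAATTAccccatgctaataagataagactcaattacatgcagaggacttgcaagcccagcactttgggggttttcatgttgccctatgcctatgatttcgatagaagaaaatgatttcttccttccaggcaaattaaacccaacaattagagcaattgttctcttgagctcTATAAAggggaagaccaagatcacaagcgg
Krt72: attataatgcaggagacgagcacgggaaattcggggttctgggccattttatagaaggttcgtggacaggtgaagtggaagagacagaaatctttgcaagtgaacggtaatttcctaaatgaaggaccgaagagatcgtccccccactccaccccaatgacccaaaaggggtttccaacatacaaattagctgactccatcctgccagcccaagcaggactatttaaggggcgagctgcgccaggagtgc
Of the 7 members with a promoter entry, 6 held TATAAA on the coding strand, against 7.59% of 32851 RefSeq promoters of this length. Its first base lay 30 bases before the start in Krt25, Krt26, Krt28 and Krt73, 40 bases before it in Krt71 and 15 bases before it in Krt27, and Krt26 has a further match 158 bases before it. Krt72 was the member without TATAAA. Its sequence holds the similar letters TATTTAA, with the first base 30 bases before the start. These letters were not searched for in the other promoters. The palindrome TAATTA stood in Krt25, Krt28, Krt71 and Krt73, 4 of 7, against 4.84% of promoters. AGATAA, searched on both strands, was found in 4 of 7 against 9.99% and overlaps TAATTA by its first base in Krt71, and CTTTGA, on both strands, in 1 of 7 against 13.8%. These letters were chosen with the sequences in view, and a match describes the text of the promoter only.

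Of the 8 keratins, 7 were tested. Each of these was well above background on all 5 untreated arrays, so none entered through its IMQ arrays alone. Krt74, which forms filaments of the Huxley layer in human follicles and is annotated as a transcribed pseudogene in the mouse, was not well above background on any of the 12 arrays, with signals of 1.87 to 3.96 on IMQ arrays and 1.92 to 3.03 on untreated arrays. Its probe lies at chr15:101584822-101584881 (mm9, minus strand, as the files give it).

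Krt71, a type II keratin found in the Henle and Huxley layers and the cuticle, was read on the probe at chr15:101564426-101564485 (mm9, minus strand). Its signal was 8.30 in Tlr7-/- IMQ skin and 15.55 in Tlr7-/- untreated skin, 8.88 and 13.68 in Tlr9-/- IMQ and untreated skin, and 4.96 and 4.26 on the Tlr7-/-Tlr9-/- IMQ arrays against 11.84 in untreated skin of that genotype. In Card14-/- mice the IMQ arrays read 15.18 and 15.17 against 13.55 in untreated skin, and in WT mice IMQ skin read 15.13 against 13.96 in untreated skin. IMQ skin was the lower one wherever Tlr7 or Tlr9 was deleted and the higher one in Card14-/- and WT mice. The reading of 4.26 was not well above background. From the lowest to the highest array Krt71 spanned 11.28 on the log2 scale.

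Krt25, a type I chain of the same layers, differed in the same direction as Krt71 in every genotype. It read 5.81 in Tlr7-/- IMQ skin against 13.16 untreated, 6.82 in Tlr9-/- IMQ skin against 11.54 untreated, and 4.37 and 4.18 in Tlr7-/-Tlr9-/- IMQ skin against 9.40 untreated, where 4.18 was not well above background. The Card14-/- IMQ arrays read 12.74 and 12.79 against 11.13 untreated, and WT IMQ skin 12.81 against 11.38 untreated. Krt27, another type I chain, was well above background on all 12 arrays. It read 6.87 in Tlr7-/- IMQ skin against 13.61 untreated, 7.46 in Tlr9-/- IMQ skin against 11.40 untreated, 6.68 and 6.55 in Tlr7-/-Tlr9-/- IMQ skin against 10.14 untreated, 13.49 and 13.50 in Card14-/- IMQ skin against 11.33 untreated, and 13.29 in WT IMQ skin against 12.30 untreated. The groups therefore fell apart in the same way for a gene that never reached the background.

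Krt28, a type I chain found through the sheath in human follicles, has 2 probes, both well above background on all 12 arrays. On the brighter probe it read 7.59 in Tlr7-/- IMQ skin against 13.00 untreated, 7.56 in Tlr9-/- IMQ skin against 10.42 untreated, 7.67 and 7.57 in Tlr7-/-Tlr9-/- IMQ skin against 9.29 untreated, 13.77 and 13.74 in Card14-/- IMQ skin against 10.96 untreated, and 12.78 in WT IMQ skin against 11.47 untreated. The other probe gave nearly the same differences, for example a difference of -5.25 beside -5.40 in Tlr7-/- mice. The 4 low IMQ arrays lay within 7.56 to 7.67, so for Krt28 the size of a fall follows the untreated level of its genotype.

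Krt26 and Krt73, both found in the sheath cuticle of human follicles, left the measurable range. Krt26 was not well above background in IMQ skin of Tlr7-/- (1.76), Tlr9-/- (3.44) and Tlr7-/-Tlr9-/- mice (1.85 and 2.86), against untreated signals of 8.65, 5.56 and 4.94 in those genotypes. It read 9.60 and 9.58 in Card14-/- IMQ skin against 6.30 untreated, and 8.36 in WT IMQ skin against 7.0 untreated. Krt73 was not well above background on the same 4 arrays (3.06, 2.75, 2.04 and 2.07), against untreated signals of 8.53, 6.53 and 4.69. It read 8.76 and 8.72 in Card14-/- IMQ skin against 6.70 untreated, and 8.17 in WT IMQ skin against 7.36 untreated. For both genes the low groups have only an upper bound. A second Krt26 probe was well above background on 4 of 12 arrays and differed in sign from the first in Tlr9-/- (2.15 beside -2.12) and Tlr7-/-Tlr9-/- mice (0.77 beside -2.58), with both sides of its comparison below background.

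Krt72, a type II chain of the sheath cuticle in human follicles, had a much narrower range than its neighbours in the cluster. It read 10.97 in Tlr7-/- IMQ skin against 11.23 untreated, 11.49 in Tlr9-/- IMQ skin against 10.78 untreated, 11.19 and 11.12 in Tlr7-/-Tlr9-/- IMQ skin against 10.41 untreated, 12.02 and 11.91 in Card14-/- IMQ skin against 11.06 untreated, and 11.83 in WT IMQ skin against 10.76 untreated. Its whole range was 1.61 on the log2 scale, and IMQ skin was the higher one in 4 of 5 genotypes.

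**Figure D1:**
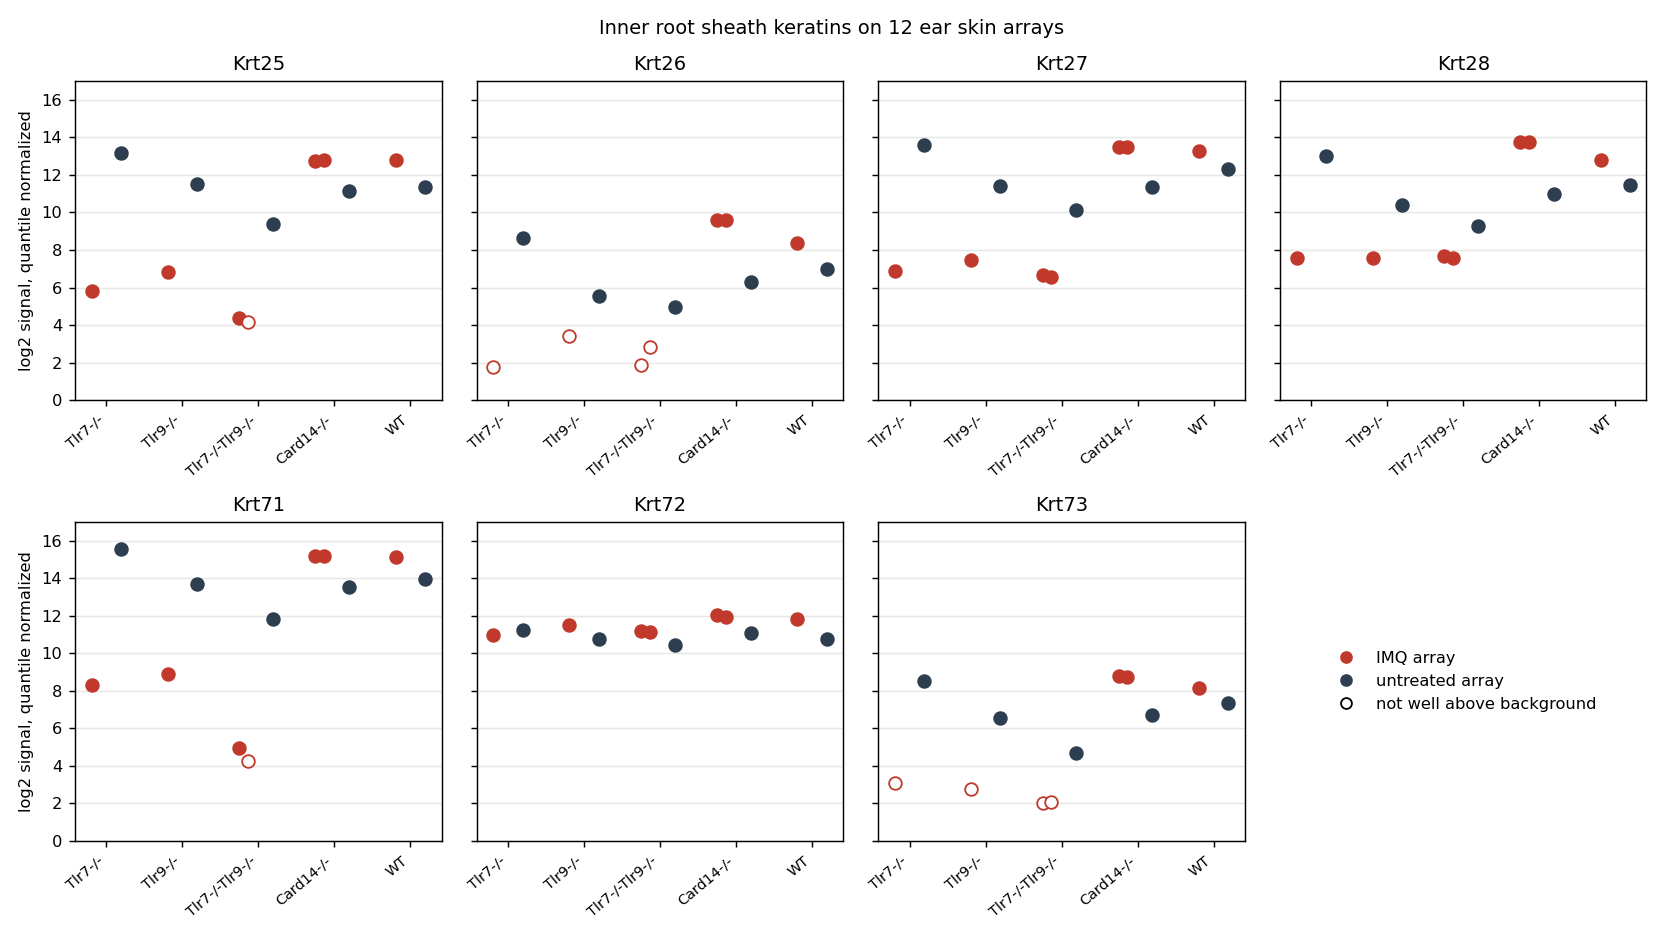
Log2 signal (vertical axis) of the 7 keratins tested on each of the 12 arrays, with genotypes along the horizontal axis, IMQ arrays in red left of untreated arrays in dark blue, and open circles for readings not well above background. Krt25, Krt26, Krt27, Krt28, Krt71 and Krt73 are lowest in the 3 IMQ groups that lack Tlr7, Tlr9 or both, while Krt72 stays between 10.41 and 12.02.

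In the order of the 10 groups, the same 4 were lowest for 6 of the 7 keratins, with the exception of Krt72. These were IMQ skin of Tlr7-/-, Tlr9-/- and Tlr7-/-Tlr9-/- mice, then untreated Tlr7-/-Tlr9-/- skin. The gap between the highest of these IMQ groups and the lowest of the other 7 groups was 2.96 for Krt71, 2.69 for Krt27, 2.58 for Krt25 and 1.67 for Krt28. For Krt26 and Krt73, whose 3 low IMQ groups were below background, it was at least 0.70 and at least 0.44, measured from the lowest detected signals of those arrays. Repeat arrays differed by at most 0.29 on any keratin probe that was well above background on both. The top places went to Tlr7-/- untreated, Card14-/- IMQ and WT IMQ skin in all 6. Among neighbours in that order, WT and Card14-/- IMQ skin were within 0.29 of each other for Krt25, Krt27 and Krt71, and Krt72 had 7 of its 9 neighbouring pairs within it. Across the 10 groups, the 15 pairs of these 6 keratins had Pearson correlations of 0.909 to 0.99 and the 6 pairs with Krt72 had 0.199 to 0.441 (0.834 to 0.990 and 0.199 to 0.556 with groups below background held at the lowest detected signal), as a description of groups that share slides and scaling.

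In Tlr7-/- mice 6 of the 7 keratins fell after IMQ and 0 rose, where 3.64% of all genes were called lower. Krt25 fell by 7.35 ± 0.12 (SE of the limma fit, 1 array a group, adjusted p = 0.00231), a 163-fold lower signal. Krt71 changed by -7.25 ± 0.39 (limma, adjusted p = 0.00864), Krt27 by -6.74 ± 0.08 (0.00175) and Krt28 by -5.40 ± 0.08 (0.00193). Krt26 was at least 22.8-fold lower (limma, adjusted p = 0.0127) and Krt73 at least 21.0-fold lower (0.00175), measured against the lowest detected signal of the array. Krt72 differed by -0.26 ± 0.09 and was not called (limma, adjusted p = 0.106). The median over the 7 was -5.40 with Krt26 and Krt73 at their bounds (-6.74 as fitted), beside -0.06 over all genes tested. Without either Card14-/- IMQ array the count was 4, and in skin it cannot be told apart whether fewer sheath cells or less keratin RNA per cell lay behind a lower signal.

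In Tlr9-/- mice 5 keratins fell and 0 rose (3.94% of all genes called lower). The differences were -4.80 ± 0.39 for Krt71 (limma, adjusted p = 0.0115), -4.73 ± 0.12 for Krt25 (0.00587), -3.94 ± 0.08 for Krt27 (0.00587) and -2.87 ± 0.08 for Krt28 (0.00587), and Krt73 was at least 5.28-fold lower (0.00587). Krt26 was at least 2.69-fold lower but was not called (limma, adjusted p = 0.0648), and Krt72 differed by 0.71 ± 0.09, below the size limit. The median was -2.87 with Krt26 and Krt73 at their bounds, beside -0.11 over all genes. The fitted median of -3.78 is the value of Krt73 itself. Without either Card14-/- IMQ array 0 of the 7 were called, and without either Tlr7-/-Tlr9-/- IMQ array 6.

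In Tlr7-/-Tlr9-/- mice 6 keratins fell and 0 rose (2.26% of all genes called lower). Krt71 changed by -7.23 ± 0.34 (2 IMQ arrays and 1 untreated array; limma, adjusted p = 0.0101), Krt25 by -5.13 ± 0.10 (0.00666), Krt27 by -3.53 ± 0.07 (0.00666) and Krt28 by -1.67 ± 0.07 (0.00982). Krt26 and Krt73 were called too (limma, adjusted p = 0.0381 and 0.00657), but with untreated signals close to background the bounds were only at least 1.62-fold and at least 1.36-fold lower. Krt72 differed by 0.75 ± 0.07 and missed the size limit. The median was -1.67 with both at their bounds, beside -0.04 over all genes. The fitted median of -2.63 is the value of Krt73 itself. Without any of the 4 repeat arrays, one at a time, 0 of the 7 were called, and here the IMQ and untreated arrays lay on different slides, so slide and treatment cannot be told apart within this genotype or within Card14-/-.

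In Card14-/- mice 5 keratins rose and 0 fell (3.09% of all genes called higher). Krt26 rose by 3.29 ± 0.49 (2 IMQ arrays and 1 untreated array; limma, adjusted p = 0.0325), Krt28 by 2.79 ± 0.07 (0.00496), Krt27 by 2.17 ± 0.07 (0.00738), Krt73 by 2.04 ± 0.05 (0.00465) and Krt25 by 1.63 ± 0.10 (0.0135). Krt71 differed by 1.63 ± 0.34 with an adjusted p of 0.0537 (limma), and Krt72 by 0.91 ± 0.07, below the size limit. The median was 2.04 beside -0.03 over all genes. Over the 5 untreated pools the SD was 1.29 to 1.43 for the 6 keratins other than Krt72. Without either Card14-/- IMQ array the count was 0, and without either Tlr7-/-Tlr9-/- IMQ array it was 6.

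In WT mice 3 keratins rose and 0 fell, where 7.72% of all genes were called higher. These were Krt25 (1.43 ± 0.12; limma, adjusted p = 0.00691), Krt28 (1.32 ± 0.08; 0.00500) and Krt72 (1.07 ± 0.09; 0.00654). Krt27 differed by 0.99 ± 0.08 and Krt73 by 0.81 ± 0.05, both below the size limit, and Krt26 (1.37 ± 0.57) and Krt71 (1.18 ± 0.39) had adjusted p-values of 0.133 and 0.0864 (limma). Without either Tlr7-/-Tlr9-/- IMQ array 5 were called. Each side was 1 pool, so pool and treatment cannot be told apart. Over the 5 untreated pools the SD was 1.29 to 1.43 for the 6 keratins other than Krt72 and 0.32 for Krt72. The rise is relative to the other genes of the array. Without scaling, the log2 signal of Krt71 was 14.44 on the WT IMQ array and 14.44 on the WT untreated array, 0 keratins were called, and their median difference was 0.00 while that of all genes was -1.25. The keratins thus lay 1.25 above all genes without scaling and 1.33 above them with it, each of the 7 by 1.00 to 1.53 without scaling.

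**Figure D2:**
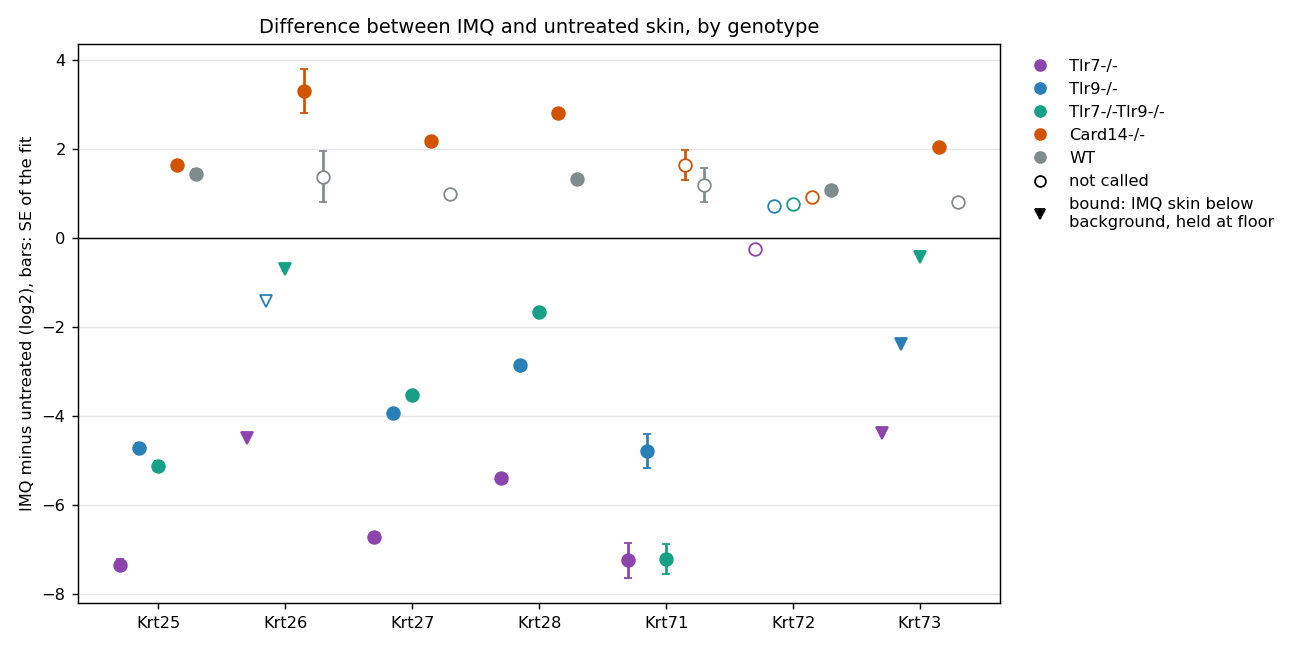
IMQ minus untreated log2 signal (vertical axis) of the 7 keratins (horizontal axis) in each genotype, with bars for the standard error of the limma fit where it exceeds the symbol and open circles for differences not called. Triangles are bounds, with IMQ skin below background held at the lowest detected signal. The Tlr7-/-, Tlr9-/- and Tlr7-/-Tlr9-/- points lie below 0 except those of Krt72 in Tlr9-/- (0.71) and Tlr7-/-Tlr9-/- mice (0.75), and the Card14-/- and WT points lie above 0 for all 7.

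Each knockout's response was also set against the WT response. These 4 comparisons share the WT arrays and use the spread of the repeat arrays, not that between genotypes. For Tlr7-/-Tlr9-/- and Card14-/- mice the IMQ arrays were on slide 2 and the other arrays compared on slide 1. Slide and genotype cannot be told apart there. In Tlr7-/- mice all 7 keratins that were tested had a lower response than in WT mice (2.25% of all genes called lower), from -8.78 ± 0.17 for Krt25 (limma, adjusted p = 0.00354) to -1.33 ± 0.12 for Krt72 (0.0379). In Tlr9-/- mice 4 were lower (0.785% of genes called lower), Krt25 (-6.16), Krt27 (-4.94), Krt28 (-4.18) and Krt73, which has no settled size since its IMQ reading was below background, while Krt71 differed by -5.97 ± 0.55 with an adjusted p of 0.0642 (limma). In Tlr7-/-Tlr9-/- mice 6 were lower (5.61% of genes called lower), from -8.40 ± 0.52 for Krt71 (limma, adjusted p = 0.0137) to -2.98 ± 0.10 for Krt28 (0.0111), and Krt72 differed by -0.32 ± 0.11 (0.123). In Card14-/- mice Krt28 (1.47 ± 0.10; limma, adjusted p = 0.0142), Krt73 (1.23 ± 0.07; 0.0134) and Krt27 (1.17 ± 0.11; 0.0169) had a higher response than in WT mice (5.15% of genes called higher). Leaving out a repeat array ended all of these calls in Tlr9-/-, Tlr7-/-Tlr9-/- and Card14-/- mice. In Tlr7-/- mice the count was 6 without either Tlr7-/-Tlr9-/- IMQ array and 0 without either Card14-/- IMQ array.

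The untreated pools of the genotypes differed as well, and these 4 comparisons share the untreated WT array. Each untreated group was 1 array of 1 pool, so genotype and pool cannot be told apart. Untreated Tlr7-/- skin was higher than untreated WT skin in 4 keratins (1.05% of genes called higher), Krt25 (1.78 ± 0.12; limma, adjusted p = 0.0301), Krt28 (1.53 ± 0.08; 0.0254), Krt27 (1.31 ± 0.08; 0.0275) and Krt73 (1.17 ± 0.05; 0.0250). Untreated Tlr7-/-Tlr9-/- skin was lower in 4 (0.569% of genes called lower), Krt73 (-2.67 ± 0.05; limma, adjusted p = 0.0221), Krt28 (-2.18 ± 0.08; 0.0384), Krt27 (-2.16 ± 0.08; 0.0399) and Krt25 (-1.98 ± 0.12; 0.0424). In untreated Tlr9-/- skin Krt28 was lower (-1.04 ± 0.08; limma, adjusted p = 0.0248; 1.52% of genes called lower). In untreated Card14-/- skin 0 keratins were called by limma (0.436% of genes), with 4 of 7 at an unadjusted p under 0.05 and differences of -0.97 to 0.29. Over the 5 untreated pools the SD was 1.29 to 1.43 for the 6 keratins other than Krt72 and 0.32 for Krt72, beside a median of 0.149 over all genes. All of these calls ended when any of the 4 repeat arrays was left out.

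Card14-/- and Tlr7-/-Tlr9-/- IMQ skin are the groups with repeat arrays, on the same slide. Of the 7 keratins 6 were higher in Card14-/- IMQ skin and 0 lower, where 1.21% of all genes were called higher. Krt71 averaged 15.18 in Card14-/- IMQ skin and 4.61 in Tlr7-/-Tlr9-/- IMQ skin (n = 2 arrays each), a difference of 10.57 ± 0.28 (limma, adjusted p = 0.00477). The differences were 8.49 ± 0.09 for Krt25 (limma, adjusted p = 0.000757), 6.88 ± 0.06 for Krt27 (0.000569) and 6.13 ± 0.05 for Krt28 (0.000569). Krt26 was at least 40.6-fold and Krt73 at least 22.6-fold higher (limma, adjusted p = 0.0173 and 0.000569). Krt72 differed by 0.81 ± 0.06, below the size limit. The count was 6 without either Tlr7-/-Tlr9-/- IMQ array, 3 without Card14-/- IMQ array 1 and 0 without Card14-/- IMQ array 2, where the adjusted p of Krt27 was 0.0523 and its difference 6.88.

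Averaged over the 5 genotypes, 0 keratins were called (limma, genotype as a block; 26.4% of all genes called), with 1 of 7 at an unadjusted p under 0.05. The member nearest to a call was Krt72 (0.63 ± 0.20, adjusted p = 0.0659), and Krt71 averaged -3.30 ± 1.63 (0.179). Without the Tlr7-/- pair 1 keratin was called. When Tlr7-deficient genotypes were set against the other 3 with genotypes as units, Krt71 differed by -6.57 ± 2.10 and the 7 keratins had a median of -3.95 with values raised to the lowest detected signal of each array (-4.87 as fitted). No keratin and no other gene was called in that comparison (limma; 0% of genes, with 2 of the 7 keratins and 754 genes at an unadjusted p under 0.05), and the lowest adjusted p was 1. In Tlr9-/- mice, which carry Tlr7, IMQ skin was the lower one for these keratins except Krt72 (0.71), and Krt26 was not called.

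Other genes of the follicle were read from lists. Their calls rest on the same repeat arrays as those of the sheath keratins. In Tlr7-/-Tlr9-/- mice they ended when any repeat array was left out. In Tlr9-/- and Card14-/- mice they ended under some fit that left out a repeat array or used the replicate number as a block. Tchh, the trichohyalin that fills sheath cells, differed by -5.26 in Tlr7-/-, -2.98 in Tlr9-/-, -2.67 in Tlr7-/-Tlr9-/-, 2.61 in Card14-/- and 1.5 in WT mice. Padi3, the enzyme that citrullinates trichohyalin, differed by -6.21 in Tlr7-/-, -3.03 in Tlr9-/-, 2.44 in Card14-/- and 1.37 in WT mice, and was at least 6.74-fold lower in Tlr7-/-Tlr9-/- mice, where IMQ skin was below background. Both were called in all 5 genotypes (limma, largest adjusted p = 0.0424, for Padi3 in WT). The other sheath genes of that list, the transcription factors Gata3 and Cux1 and the transglutaminase Tgm3, had differences of -0.85 to 0.37 and were not called.

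Of the 15 hair shaft keratins, which build the fibre inside the sheath, 14 were tested. In Tlr7-/- mice 12 fell and 0 rose, with a median of -3.90 when groups below background were held at the lowest detected signal (-4.44 as fitted). Krt82 was at least 32.1-fold lower (limma, adjusted p = 0.0104), with IMQ skin below background, and Krt85 (-0.27) and Krt84 (-0.06) were not called (limma). In Tlr9-/- mice 4 fell and 0 rose, among them Krt82 (-2.56) and Krt40 (at least 3.49-fold lower), and the median was -0.53, beside -2.87 for the sheath keratins on the same footing. In Tlr7-/-Tlr9-/- mice 9 fell and 0 rose (median -1.34 so held, -1.65 as fitted), and of these Krt36, Krt40 and Krt82 were below background in IMQ skin, Krt40 in untreated skin too. In Card14-/- mice 9 rose, Krt34 most (3.14), and in WT mice 6 rose, with 0 falls in both and medians of 1.83 and 1.18. Summed over the list, log2 signal was 12.93 to 15.71 in the IMQ groups and 13.36 to 15.50 in the untreated groups. Their part in the sheath result was not tested.

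Lists of the rest of the skin moved less. Of 8 hair matrix regulators, 3 fell in Tlr7-/- mice, 1 was called in Tlr9-/- mice and 0 in the other 3 genotypes. Hoxc13 (-1.24) and Foxn1 (-1.02) were called in Tlr7-/- mice with neither side below background. Shh, a signal of the growing hair bulb, was called in Tlr7-/- and in Tlr9-/- mice. It was below background in IMQ skin of both genotypes and in untreated Tlr9-/- skin. Shh was thus at least 1.48-fold lower in Tlr7-/- mice and has no measured difference in Tlr9-/- mice. Of 12 genes of the outer root sheath, companion layer and bulge, 6, 4, 3, 2 and 4 fell in Tlr7-/-, Tlr9-/-, Tlr7-/-Tlr9-/-, Card14-/- and WT mice and 0 rose, with medians of -0.82 to -0.23. Krt6b, an injury-induced keratin of that list, differed by -4.37 in Tlr7-/- and -2.29 in WT mice. Krt75, also of that list, differed by -2.74 in Tlr7-/-, -1.41 in Tlr9-/- and 0.15 in WT mice. Its signal was 2.21 higher in Card14-/- than in Tlr7-/-Tlr9-/- IMQ skin. Of 7 tested keratins of the epidermis between follicles, 2 fell in Tlr7-/- and 1 in Card14-/- mice, and their summed log2 signal was 19.16 to 19.37 in IMQ and 19.29 to 19.42 in untreated groups. Cell cycle genes fell in WT (4 of 12), Tlr9-/- (4) and Tlr7-/- mice (2) and 0 were called in Card14-/- and Tlr7-/-Tlr9-/- mice. Of all 24078 genes tested, 1616 were called lower in WT mice and 322 in Card14-/- mice. With groups below background held at the lowest detected signal, medians of the melanocyte, sebaceous, muscle, fat, fibroblast and leukocyte lists lay between -0.78 and 0.71 in every genotype. Whether the share of any of these cells set the keratin levels was not tested.

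**Figure D3:**
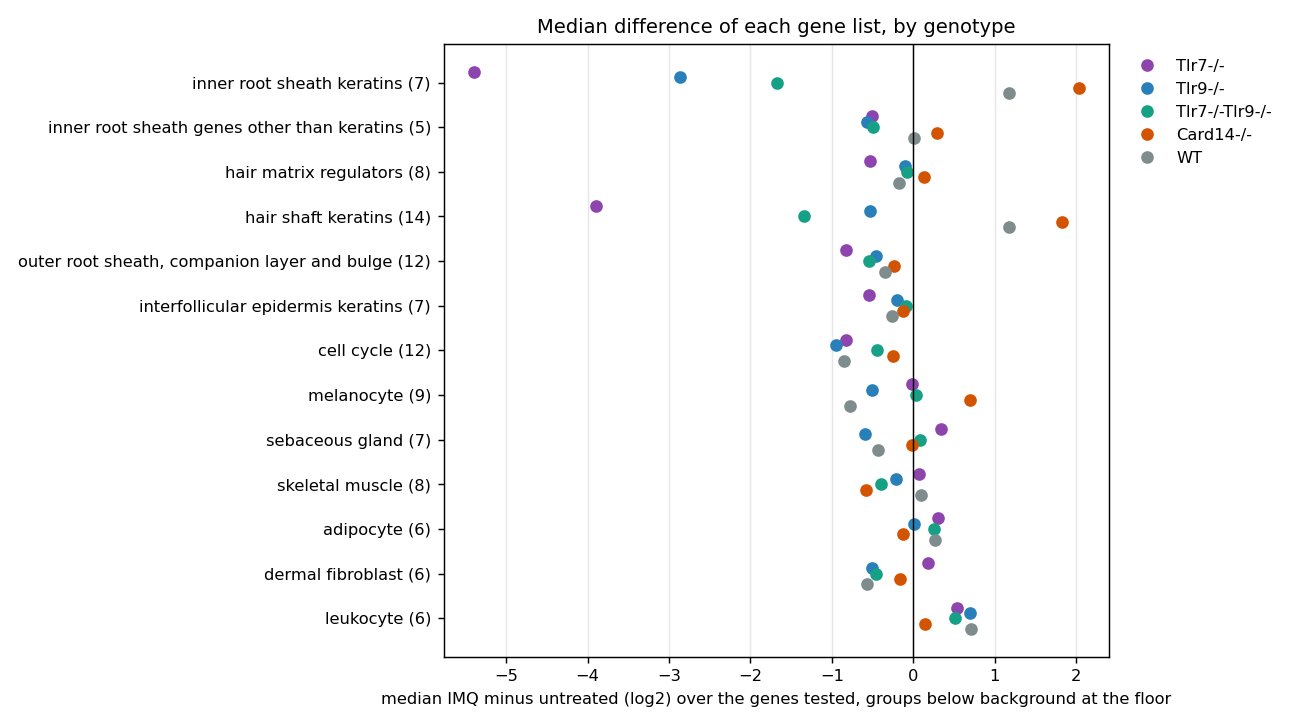
Median IMQ minus untreated log2 difference (horizontal axis) of each gene list (vertical axis, number of genes tested in brackets), with 1 point per genotype and groups below background held at the lowest detected signal. The sheath keratins span medians of -5.40 to 2.04 and the hair shaft keratins -3.90 to 1.83, while the other lists lie between -0.95 and 0.71.

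Of 17934 other genes with a reference symbol, 57 had a Pearson correlation above 0.9 with the mean of the 7 keratins over the 10 groups. The 10 most alike were Padi3 (0.9991), Tchh (0.9958), Lrrc15 (0.9902), Tchhl1 (0.9869), Prr9 (0.9815), Ctse (0.9750), Gm12963 (0.9588), Crym (0.9565), Crnn (0.9535) and Gm11554 (0.9534). Over the groups the range on the log2 scale was 4.44 to 6.78 for Tchh, Lrrc15, Tchhl1, Prr9 and Crym and 0.70 for Gm12963. Ctse was below background in 3 groups and Padi3, Crnn and Gm11554 in 1 each, where the range was at least 3.55, 6.92, 5.01 and 8.36 in that order, and the correlations use those readings as measured. Padi3, for example, read 4.57 in Tlr7-/- IMQ skin against 10.78 untreated and 11.17 in Card14-/- IMQ skin against 8.72 untreated. These groups share slides and scaling, and the likeness is a description.

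**Figure D4:**
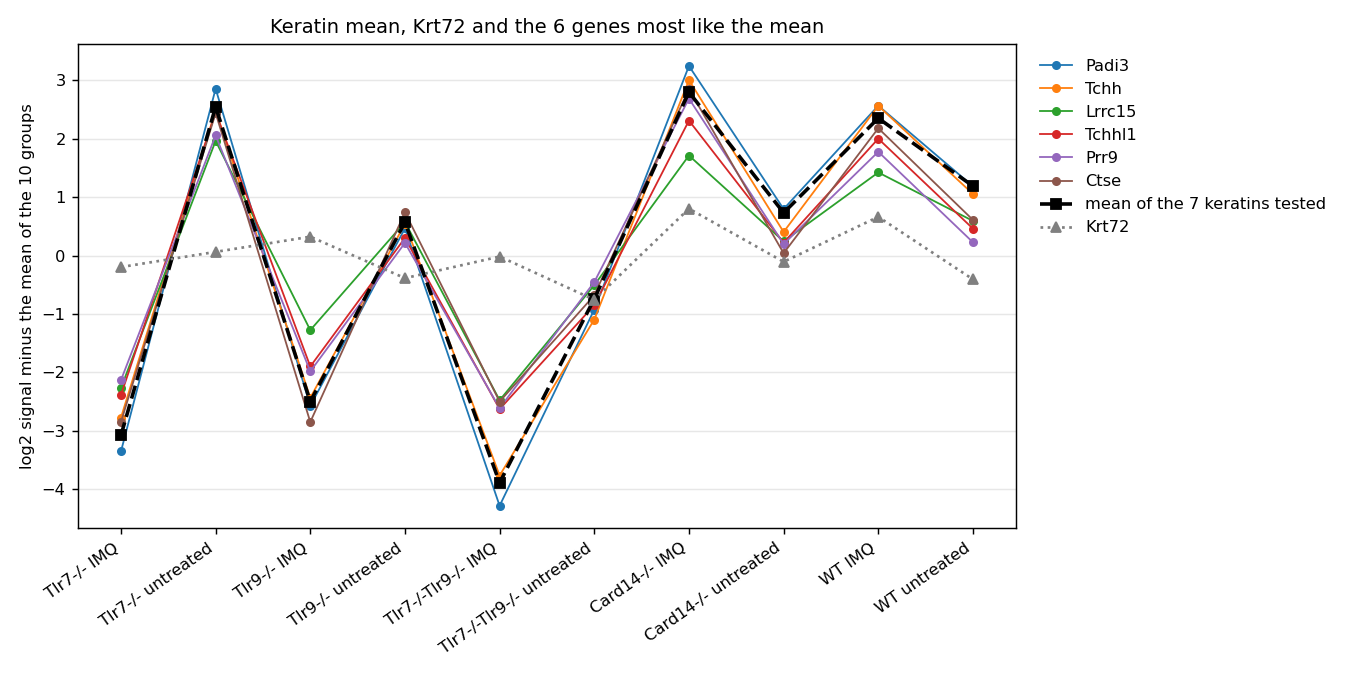
Log2 signal minus the mean of the 10 groups (vertical axis) for the mean of the 7 keratins, Krt72 and the 6 genes most like the keratin mean, over the 10 groups (horizontal axis); the lines join points only to guide the eye. Padi3, Tchh and the keratin mean are lowest in Tlr7-/-Tlr9-/- IMQ skin and high in Card14-/- IMQ, Tlr7-/- untreated and WT IMQ skin, and Krt72 lies within 1 of 0 throughout.

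Genes next to the clusters did not share the pattern. On chromosome 11, Krt10, the main keratin of the upper epidermis, differed by -0.26 to 0.03 between IMQ and untreated skin over the genotypes, and Krt24 by 0.17 to 0.77. Krt222 was higher in Tlr7-/- IMQ skin (1.02) and in WT IMQ skin (1.29), both called by limma. Krt12 differed by -0.94 in WT to 1.43 in Tlr7-/-Tlr9-/- mice and was not called in any genotype. On chromosome 15, Krt2, a late epidermal keratin, differed by -0.24 to 0.88 and was not called, while Krt1 (-1.04) and Krt6a (-1.37) fell in Tlr7-/- mice alone by the call rule. The probe of Krt5, also in that stretch, had an outlier mark and was not tested.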

How the data were processed

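Whole ear skin RNA of 5 genotypes, untreated or 4 h after IMQ, was hybridized to 12 single-colour Agilent arrays, with 200 ng of labelled RNA from a pool of 6 to 8 mice, per the labels' protocols. The scanner files hold spot intensity, made with Agilent Feature Extraction 10.7.3.1 per the file headers, while the submitters' processing notes name 10.5.1.1. Its processed intensity had background subtracted within the array and was not scaled between arrays, per the file headers. A log2 table that the authors deposited, background-subtracted and normalized with limma per the labels' protocols, served as an alternative.

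Here log2 values of the processed intensity were quantile normalized over 12 arrays. Of 56605 probes, 246 with an outlier mark on any array were left out, 37119 were well above background on at least 2 arrays, and the probe with the highest mean stood for each of 24078 genes. Probes were named through RefSeq by accession (32994), symbol (10224) or synonym (520), and 12867 kept the name in the file. Group contrasts used limma 3.58.1 (lmFit and eBayes, two-sided) in R 4.3.3 on 10 group means. The average response used 1 value for each genotype and treatment, blocked by genotype (4 residual degrees of freedom), and the Tlr7 comparison 5 differences (3 residual degrees of freedom), both without a size limit. Where a group was not well above background, a fold is a bound against the lowest detected signal of its arrays. Files were read with Python 3.11.15, pandas 2.3.3, numpy 2.4.6 and version 1.17.8 of data.table, and drawn with matplotlib 3.10.9. Precision is limited by the number of arrays.

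All 8 keratins were named with every probe, as were the 10 reference-named genes most correlated with their mean, list genes by count with the largest and smallest change as examples, and up to 3 annotated genes on each side of each cluster. Padi3 and Tchh were described in full, and Krt75, Hoxc13 and Foxn1 were added, after their values were seen. The members and lists were chosen with earlier results of these data known. Alternatives changed the background correction, scaling, filter, probe rule, slide and replicate block, and left out arrays or genotypes. Replicate numbers were not taken as pairs, since repeat arrays of the same number deviated together with a correlation of only 0.058 over 2 pairs.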

Additional observations from a re-analysis of the deposited data

Results flagged for a closer look

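In these keratins the response to IMQ differed between a knockout and WT mice by the limma test of that difference (adjusted p under 0.05 and a size of at least 1 on the log2 scale). In Tlr7-/- mice the knockout response minus the WT response was -8.78 for Krt25, -8.25 for Krt26, -7.74 for Krt27, -6.72 for Krt28, -8.42 for Krt71, -1.33 for Krt72 and -6.28 for Krt73. In Tlr9-/- mice it was -6.16 for Krt25, -4.94 for Krt27, -4.18 for Krt28 and -4.59 for Krt73. In Tlr7-/-Tlr9-/- mice it was -6.56 for Krt25, -3.95 for Krt26, -4.52 for Krt27, -2.98 for Krt28, -8.40 for Krt71 and -3.44 for Krt73. In Card14-/- mice it was 1.17 for Krt27, 1.47 for Krt28 and 1.23 for Krt73. For Krt26 and Krt73 in the Tlr-deficient genotypes these are fitted values with IMQ signals below background, so the true differences have no settled size.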

How the results depend on the processing

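The direction of the falls in Tlr7-/-, Tlr9-/- and Tlr7-/-Tlr9-/- mice was kept by Krt25, Krt27, Krt28, Krt71 and Krt73 under every alternative in which they were tested, which leaves out the filter for probes well above background on all 12 arrays for Krt25, Krt71 and Krt73, and the number of calls rests on the repeat arrays. Each leave-out leaves 1 residual degree of freedom. Leaving out 1 repeat array gave counts of keratins called of 3 to 5 in WT (3 with all arrays), 0 to 6 in Tlr9-/- (5), 0 in Tlr7-/-Tlr9-/- (6) and 0 to 6 in Card14-/- mice (5). The same gave 0 to 6 for the response difference from WT in Tlr7-/- mice (7) and 0 in Tlr9-/- (4), Tlr7-/-Tlr9-/- (6) and Card14-/- mice (3). It gave 0 for untreated Tlr7-/- (4), Tlr9-/- (1) and Tlr7-/-Tlr9-/- skin (4), and 0 to 6 for Card14-/- against Tlr7-/-Tlr9-/- IMQ skin (6). Leaving out a genotype gave 0 to 1 in the average response (0).

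With the replicate number as a block, 0 keratins were called in the response of Tlr7-/-Tlr9-/- and Card14-/- mice, in all 4 response differences from WT and in untreated Tlr7-/-, Tlr9-/- and Tlr7-/-Tlr9-/- skin, where 1 residual degree of freedom is left.

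With probes well above background on all 12 arrays only Krt27, Krt28 and Krt72 can be tested. Then 1 was called in the average response, 2 in each of the Tlr7-/-, Tlr9-/-, Tlr7-/-Tlr9-/- and Card14-/- responses, 3 in the response difference of Tlr7-/- mice and 2 in those of Tlr9-/- and Tlr7-/-Tlr9-/- mice. It was 2 in untreated Tlr7-/- and Tlr7-/-Tlr9-/- skin and in the comparison of Card14-/- with Tlr7-/-Tlr9-/- IMQ skin. The other 4 drop out by construction, and the cause of the added call in the average response was not tested.

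Normexp correction called 1 keratin in the average response and 6 in WT mice, and the deposited values gave 1 and 5, and 2 in untreated Tlr9-/- skin. The mean over probes gave 2 in untreated Tlr9-/- skin. Values raised to the array floor, chosen after seeing the data, gave 5 in WT mice and 2 in untreated Tlr9-/- skin. The cause was not tested.

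Without scaling, also chosen after seeing the data, the counts were 4 in the average response, 0 in WT mice, 5 in the response difference of Card14-/- mice, and 2 each in untreated Tlr9-/- and Tlr7-/-Tlr9-/- skin. The median of all genes then shifted by -0.90 on average and -1.25 in WT mice, where 532 genes were called higher and 15046 lower, against 1859 and 1616 with scaling. Under this shift the sign was turned in WT mice for Krt27 (-0.25), Krt72 (-0.23), Krt73 (-0.25) and, to 0.00, Krt71, which lay 1.00 to 1.25 above the median of all genes. For Krt72 it also turned in the average (-0.28), in Tlr9-/- (-0.30) and Tlr7-/-Tlr9-/- mice (-0.08), in the response differences of Tlr7-/-Tlr9-/- (0.15) and Card14-/- mice (0.67), and in untreated Tlr9-/- skin (-0.12, and -0.01 in the deposited values). Krt26 in Tlr9-/- mice was 0.02 with the mean over its probes.

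Over all genes, most of the counts behind the percentages moved by more than 1.5 times under some alternative. In Tlr7-/- mice, for example, the count moved from 1816 to between 896 and 10634. It moved less, from 349 to between 235 and 415, for Card14-/- against Tlr7-/-Tlr9-/- IMQ skin. Those calls ended under some fit that left out a repeat array or used the replicate number as a block. The Tlr7 comparison had no call under any alternative. Signal over background limits Krt26 and Krt73 to bounds in 3 IMQ groups and left Krt74 without a test.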
